A study of Mus musculus with 2 samples.

Results

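The interleukin-36 genes and the gene of their receptor were described in single cells of ulcerated mouse skin. The 4 members, Il36a, Il36b, Il36g and Il1rl2, were taken by symbol from the 33696 genes of the count matrices. All 4 symbols were found, and they were chosen from their measured levels in these same libraries, so the levels below are descriptions and carry no test. There was 1 library per genotype: lesional skin of wild-type mice, and lesional skin of mice with Has2 overexpressed in the whole body. Has2 makes hyaluronan, a sugar polymer of the skin matrix. The skin of both had been tape-stripped on 15 consecutive days, with 40 to 50 strips a day, as a stand-in for scratching. The treatment label begins mid-sentence, so any step before the stripping is not given in the labels used here. The labels do not give the promoter of the transgene, the age or sex of the mice, or how many mice went into a library. Because each genotype is 1 library, genotype cannot be told apart from animal, dissociation or library, and every interval below is a 95% interval for counting error only.

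Interleukin-36 alpha, beta and gamma, encoded by Il36a, Il36b and Il36g, are cytokines of the interleukin-1 family. They bind a receptor made of Il1rl2, the specific chain, and Il1rap, the chain shared with interleukin-1 and interleukin-33, and signal through Myd88 to NF-kB. Il36rn encodes an antagonist that occupies the receptor without signalling. In skin the ligands are best known from keratinocytes, they are released as precursors that proteases trim to the active form, and loss of the antagonist in people causes a pustular skin disease.

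The stretches just upstream of the members' starts are shown as a description, and their part in where ligands and receptor were found was not tested. Of the 4 members, 3 had an entry among the RefSeq promoters of build GRCm38.p6, which is not the build used for the counts (GRCm39), and Il36a had none. Each run is the 250 bases before the start, 5′ to 3′ on the plus strand. Il36g lies at chr2:24186226-24186475, Il36b at chr2:24152922-24153171 and Il1rl2 at chr1:40324339-40324588. Capitals mark letters matching 1 of 5 patterns searched on both strands.
Il36g: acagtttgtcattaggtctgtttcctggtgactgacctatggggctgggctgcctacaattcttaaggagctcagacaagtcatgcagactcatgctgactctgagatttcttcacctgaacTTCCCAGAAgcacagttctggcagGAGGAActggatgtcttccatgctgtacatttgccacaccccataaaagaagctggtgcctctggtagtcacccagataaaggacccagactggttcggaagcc
Il36b: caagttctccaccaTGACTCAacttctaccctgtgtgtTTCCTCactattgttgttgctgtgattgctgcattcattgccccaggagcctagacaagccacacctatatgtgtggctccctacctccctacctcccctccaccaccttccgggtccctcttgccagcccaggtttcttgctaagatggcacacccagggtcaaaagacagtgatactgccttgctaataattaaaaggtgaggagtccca
Il1rl2: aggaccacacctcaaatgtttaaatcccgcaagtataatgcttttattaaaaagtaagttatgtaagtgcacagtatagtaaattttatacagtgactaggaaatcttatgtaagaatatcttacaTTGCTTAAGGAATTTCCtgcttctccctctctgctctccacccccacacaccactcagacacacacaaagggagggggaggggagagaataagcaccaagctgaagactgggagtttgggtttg
The patterns were TGACTCA for AP-1, GGNNTTTCC for NF-kB, GAGGAA for PU.1, TTNNGCAA for C/EBP and TTCNNNGAA for STAT, and they were picked after the sequences had been seen. Il36g had the PU.1 letters 104 bases and the STAT letters 128 bases before the start. Il36b had the AP-1 letters 236 bases before the start and the PU.1 letters, on the minus strand, 212 bases before it. Il1rl2 had the NF-kB letters 116 bases before the start, directly next to the C/EBP letters on the minus strand, which began 124 bases before it. Among 32851 promoters of the same length, 4.46% held the AP-1 pattern, 4.93% the NF-kB pattern, 23.3% the PU.1 pattern, 9.56% the C/EBP pattern and 7.02% the STAT pattern. A match describes letters and not a site.

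The wild-type library held 16999 cell barcodes with 143875454 unique molecular identifiers (UMIs, 1 per captured transcript) and the Has2-labelled library 14622 barcodes with 134917708 UMIs. After filtering, 16837 and 14415 cells were kept, and 14419 and 12766 of them carried at least 3 of 8 marker genes of 1 cell type and were placed in it. Types are called "-like" since they rest on markers, and 9 types had at least 20 cells in each library. Neutrophil-like cells numbered 6906 in the wild-type and 5610 in the Has2-labelled library, with S100a9, Retnlg and S100a8 leading. Keratinocyte-like cells, led by Krt14, Krt5 and Lgals7, numbered 20 and 195, so wild-type keratinocyte values rest on very few cells. Another 536 and 358 barcodes carried markers of more than 1 type and were set aside as mixed, and 79 barcode sequences occurred in both libraries. Has2 itself did not follow the genotype label in every type. Its level was 179 and 144 CPM (UMIs of the gene per 1000000 UMIs of the cell type) in wild-type and Has2-labelled fibroblast-like cells, a ratio of 0.809 (0.787 to 0.832). In keratinocyte-like cells it was 1.83-fold higher in the Has2-labelled library (1.43 to 2.39), and over all kept cells 71.5 and 85.8 CPM. At low counts it was also higher in that library in macrophage-like cells (8 and 61 UMIs, 9.68-fold), neutrophil-like cells (30 and 47 UMIs, 2.89-fold) and endothelial-like cells (17 and 37 UMIs, 2.69-fold). Whether transcripts of the transgene are counted as Has2 is not given in the sources used here. The second library is therefore called the Has2-labelled library throughout.

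Il36g was by far the most abundant ligand, and nearly all of it was in neutrophil-like cells. Wild-type neutrophil-like cells had 1391 CPM (1377 to 1406), and Has2-labelled ones 1515 CPM (1494 to 1536). These cells held 34064 of the wild-type library's Il36g UMIs, 93.6% (93.4 to 93.9), and 20132 in the Has2-labelled library, 90.9% (90.5 to 91.3). They held only 17.0% and 9.87% of all UMIs. Il36g stood seventh among the genes that most set neutrophil-like cells apart. It was not used to place them, but it was chosen from its levels in these same libraries, so the rank is a description only.

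**Figure D1:**
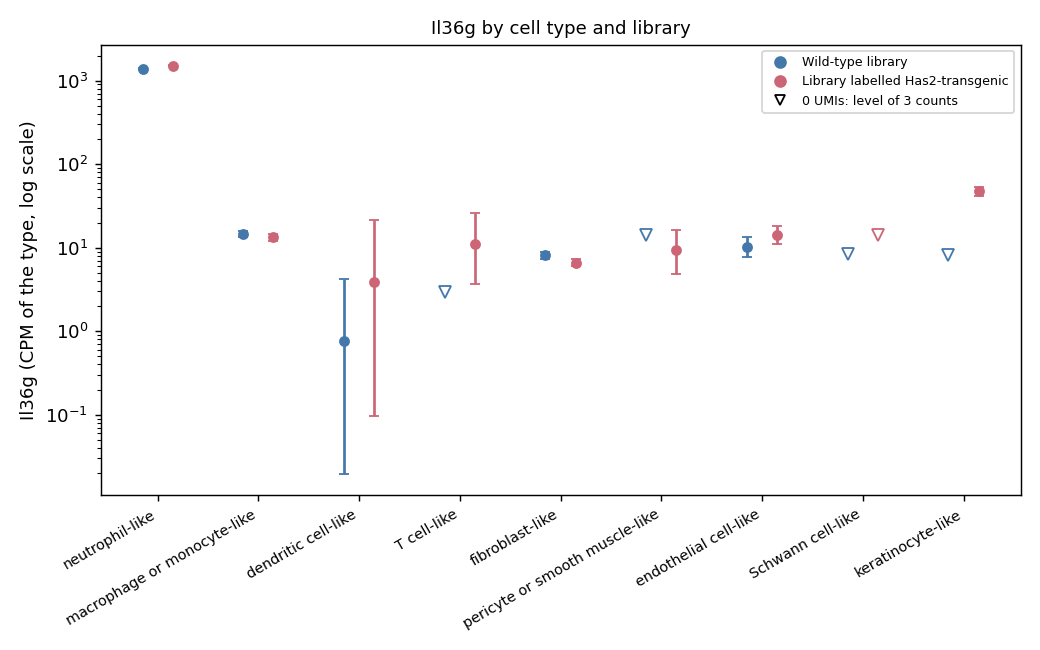
Il36g level (CPM of all UMIs of the cell type, log axis) in the 9 cell types with at least 20 cells per library. Points are the library's summed level with 95% exact Poisson intervals for counting error, blue for wild-type and red for Has2-labelled, and open triangles mark the level of 3 counts where no UMI was found. The neutrophil-like points lie at 1391 and 1515 CPM, the Has2-labelled keratinocyte-like point near 47.1 CPM, and every other point with a UMI below 15 CPM.

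Keratinocyte-like cells of the Has2-labelled library came next, at 47.1 CPM (41.1 to 53.8) from 218 UMIs, which were 0.984% of that library's Il36g. No Il36g UMI was found in the 20 wild-type keratinocyte-like cells, and 3 counts there would have been 8.10 CPM. Keratinocyte-like cells of the Has2-labelled library stood at 5.81-fold that level of 3 counts. Macrophage- or monocyte-like cells had 14.7 CPM (13.5 to 15.9) in the wild-type and 13.4 CPM (12.2 to 14.8) in the Has2-labelled library. Fibroblast-like cells had 8.11 CPM (7.37 to 8.90) and 6.59 CPM (5.99 to 7.24), below the macrophage-like intervals of both libraries. Endothelial-like cells, at 10.3 CPM (7.81 to 13.4) and 14.3 CPM (11.01 to 18.3), were not told apart from macrophage-like cells in the Has2-labelled library or from fibroblast-like cells in the wild-type library, and lay below macrophage-like cells in the wild-type library and above fibroblast-like cells in the Has2-labelled library. T-cell-like cells had 0 and 5 UMIs, dendritic-like cells 1 and 1, pericyte-like cells 0 and 12, and Schwann-like cells 0 in both. Mixed barcodes stood at 159 and 155 CPM, between the neutrophil-like cells and the rest.

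As a source of Il36g, neutrophil-like cells exceeded keratinocyte-like cells by level and more so by number. In the Has2-labelled library the neutrophil-like level was 32.2-fold the keratinocyte-like level (28.2 to 36.9). Per cell the gap was 3.21-fold, since the median keratinocyte-like cell had 14986 UMIs and the median neutrophil-like cell 2086. Summed over the library there were 92.3 neutrophil-like Il36g UMIs for each keratinocyte-like UMI. In the wild-type library the neutrophil-like level was 172-fold that of 3 counts in the keratinocyte-like cells, and the interval of the ratio began at 139.6. How many cells of each type the dissociation released was not measured.

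Within neutrophil-like cells Il36g was widespread. At least 1 UMI was found in 5675 cells (82.2%) of the wild-type and 4206 cells (75.0%) of the Has2-labelled library. With every cell thinned to 1000 UMIs, which left out 284 and 313 shallower cells, the shares were 61.5% (60.3 to 62.7) and 60.0% (58.7 to 61.4). In T-cell-like cells, taken as a type without Il36g, 0% and 1.60% of cells had a UMI, at median depths of 3906 and 3263 UMIs, and a limit of 3 counts over the 230 wild-type cells is 1.30%. The median neutrophil-like cell held 3 Il36g UMIs in the wild-type and 2 in the Has2-labelled library, and the highest cells 64 and 42. The 691 and 561 cells richest in Il36g, 1 in 10, held 36.6% and 40.2% of the neutrophil-like Il36g UMIs. Cells with 20 or more UMIs made up 2.91% and 1.55%.

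**Figure D2:**
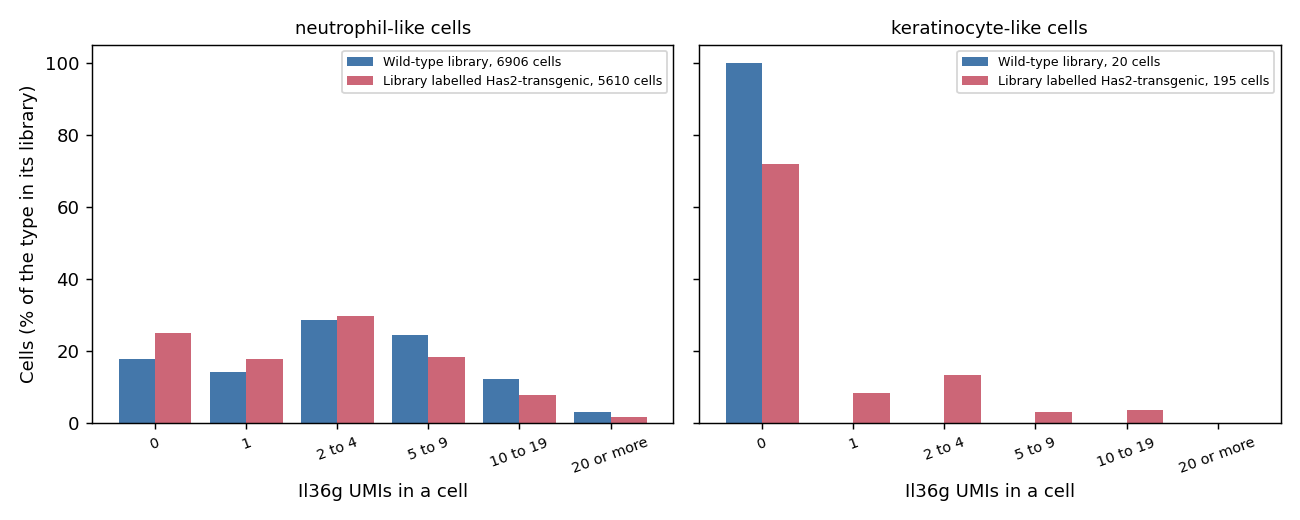
Share of cells (percent of the type in its library, linear axis from 0) by the number of Il36g UMIs in the cell, for neutrophil-like cells on the left and keratinocyte-like cells on the right, blue for wild-type and red for Has2-labelled. Neutrophil-like cells spread over all classes with 17.8% and 25.0% at 0 UMIs, and all 20 wild-type keratinocyte-like cells sit at 0.

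Between the libraries the neutrophil-like level of Il36g differed little. The ratio of the Has2-labelled to the wild-type library was 1.09 (1.07 to 1.11), beyond counting error but without any replicate. Over all kept cells the same gene went the other way, 253 and 165 CPM, a ratio of 0.650 (0.639 to 0.660), and neutrophil-like cells held 17.0% and 9.87% of all UMIs. Among the 4 neutrophil-like clusters Il36g did not move in 1 direction. It was lower in the Has2-labelled library in the cluster led by Oasl1 and Fos (1705 and 1570 CPM) and in the cluster led by Csta3 and Il23a (1830 and 1725 CPM). It was higher in the cluster led by Camp, a granule protein gene (1605 and 1705 CPM), and in the cluster led by the stefin-like gene Cstdc5 (1362 and 1563 CPM). The intervals were apart in 1 of the 2 clusters where it was lower and in 2 of the 2 where it was higher. The clusters also made up different shares of the neutrophil-like cells. The Oasl1 cluster held 4.10% of them in the wild-type and 21.1% in the Has2-labelled library, the Camp cluster 39.9% and 28.3%, the Cstdc5 cluster 30.5% and 18.3%, and the Csta3 and Il23a cluster 18.8% and 28.7%. Of the neutrophil genes, Retnlg, a secreted protein gene, stood at 17537 and 5577 CPM in neutrophil-like cells. Csf3r, the receptor of granulocyte colony-stimulating factor, went the other way, 632 and 752 CPM, and Cxcr2 was at 745 and 794 CPM. The part of the makeup and of Retnlg in the Il36g ratio was not tested.

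The Il36g of Has2-labelled keratinocyte-like cells was read beside neutrophil markers, since free RNA can enter droplets of other cells. Of the 195 cells, 55 (28.2%) had an Il36g UMI, and 3.76% did after thinning to 1000 UMIs. In these cells 796 Il36g UMIs were found per 1000 UMIs of Csf3r, Cxcr2 and Retnlg (663 to 954), against 213 (209 to 216) in the neutrophil-like cells of the same library. Fibroblast-like cells, at 243 (218 to 269), were near the neutrophil-like ratio, and macrophage-like cells had 354 (316 to 396). Endothelial-like cells had 1208 (826 to 1772), an interval that overlapped the keratinocyte-like one, from 64 Il36g UMIs and 53 of the neutrophil genes. Pericyte-like cells had 12 Il36g UMIs and 1 of those genes. A ratio above the neutrophil-like one was therefore not particular to keratinocyte-like cells. In the wild-type library the ratio was 73.6 in neutrophil-like and 101 in fibroblast-like cells. It was 306 (279 to 336) in macrophage-like and 253 (186 to 340) in endothelial-like cells of that library. Of the 55 keratinocyte-like cells with Il36g, 44 had no UMI of the 3 neutrophil genes. The 173 keratinocyte-like cells without any UMI of those genes held 154 Il36g UMIs, 42.1 CPM (35.7 to 49.3). The part of free RNA in these counts was not tested beyond these values.

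Keratinocyte-like cells with Il36g were deeper and richer in keratins than those without. Their median depth was 40296 UMIs against 11544.5, so finding the UMI and depth moved together. Wound-edge keratins stood at 27158 CPM in cells with Il36g and 9754 CPM in cells without, suprabasal genes at 5564 and 1598 CPM, and basal keratins at 31233 and 17519 CPM. S100a8 and S100a9, alarmin genes of neutrophils and of stressed epidermis, summed to 2045 and 692 CPM. The neutrophil genes Csf3r, Cxcr2 and Retnlg summed to 90.2 and 24.6 CPM, and their part in these differences was not tested. Il36rn, the antagonist, was at 15.2 CPM in cells with Il36g and 2.28 CPM in cells without. The receptor gene Il1rl2 was found in both groups, at 37.7 CPM (92 UMIs) in cells with Il36g and 43.8 CPM (96 UMIs) in cells without. Cells with more suprabasal than basal UMIs numbered 5 in the Has2-labelled library and 0 in the wild-type library, so the upper epidermis was hardly sampled.

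Il36a was scarce and also sat mainly in neutrophil-like cells. It gave 153 UMIs in 111 wild-type and 158 UMIs in 99 Has2-labelled neutrophil-like cells, 69.9% and 79.0% of each library's Il36a. The level was 6.25 CPM (5.30 to 7.32) in wild-type cells and 11.9 CPM (10.1 to 13.9) in the Has2-labelled library, a ratio of 1.90 (1.51 to 2.39). After thinning to 1000 UMIs that ratio was 1.41, with an interval of 0.936 to 2.12 that includes 1. Il36a was higher in the Has2-labelled library in 3 of the 4 neutrophil-like clusters, with intervals apart in 2 of them. It stood at 7.50 and 14.1 CPM in the Camp cluster, 12.4 and 20.8 CPM in the Csta3 and Il23a cluster, 3.04 and 6.88 CPM in the Cstdc5 cluster, and 4.46 and 4.01 CPM in the Oasl1 cluster. The part of the cluster makeup in the ratio was not tested. Macrophage-like cells had 32 and 17 UMIs, fibroblast-like cells 10 and 7, and keratinocyte-like cells 0 and 1. Most neutrophil-like cells with Il36a also had Il36g, 93.7% in the wild-type and 88.9% in the Has2-labelled library, against 82.0% and 74.7% of the other neutrophil-like cells, which were shallower (median 3108 against 3753 UMIs, and 2078 against 2576).

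Il36b was almost absent, with 25 UMIs in the wild-type and 22 in the Has2-labelled library. Neutrophil-like cells held 21 and 14 of them, 0.858 and 1.05 CPM. Keratinocyte-like cells of the Has2-labelled library held 8 UMIs in 6 cells, 1.73 CPM (0.746 to 3.41), and each of these cells also had Il36g. The neutrophil- and keratinocyte-like intervals of that library overlapped. Keratinocyte-like cells held 36.4% of the Has2-labelled library's Il36b, against 0.984% of its Il36g and 1 of its 200 Il36a UMIs.

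Ligand levels within neutrophil-like cells followed the chemokine gene Ccl3. Cells were split by the share of their UMIs that were Ccl3: none, at or below the median of the cells with a UMI, and above it. Il36g stood at 1045, 1250 and 1835 CPM in these 3 groups of the wild-type library and at 1278, 1389 and 1780 CPM in the Has2-labelled library. The intervals of the 3 groups did not overlap in either library. Il36a had a steeper order, 1.78, 4.22 and 12.2 CPM in the wild-type and 1.74, 5.47 and 24.3 CPM in the Has2-labelled library. Its first 2 groups held 12 and 40 UMIs, and 5 and 29 UMIs, and their intervals overlapped in both libraries. A split by Il1b, the interleukin-1 beta gene, gave the same order for Il36g, 1170, 1237 and 1594 CPM and then 1053, 1377 and 1711 CPM. A split by Cxcr2, the chemokine receptor of circulating neutrophils, gave the opposite order in the wild-type library, 1688, 1325 and 1257 CPM, and little spread in the Has2-labelled library, 1586, 1480 and 1481 CPM. A split by interferon-stimulated genes put Il36g highest in cells without such UMIs in both libraries, 1569, 1168 and 1256 CPM and then 1614, 1276 and 1546 CPM, although the first and last intervals of the Has2-labelled library overlapped. A split by Retnlg gave no order shared by the libraries, 1323, 1355 and 1436 CPM and then 1550, 1378 and 1635 CPM. Median depth in the Ccl3 groups was 3030, 3285 and 3011 UMIs in the wild-type library and 1895, 2111 and 2231.5 UMIs in the Has2-labelled library.

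**Figure D3:**
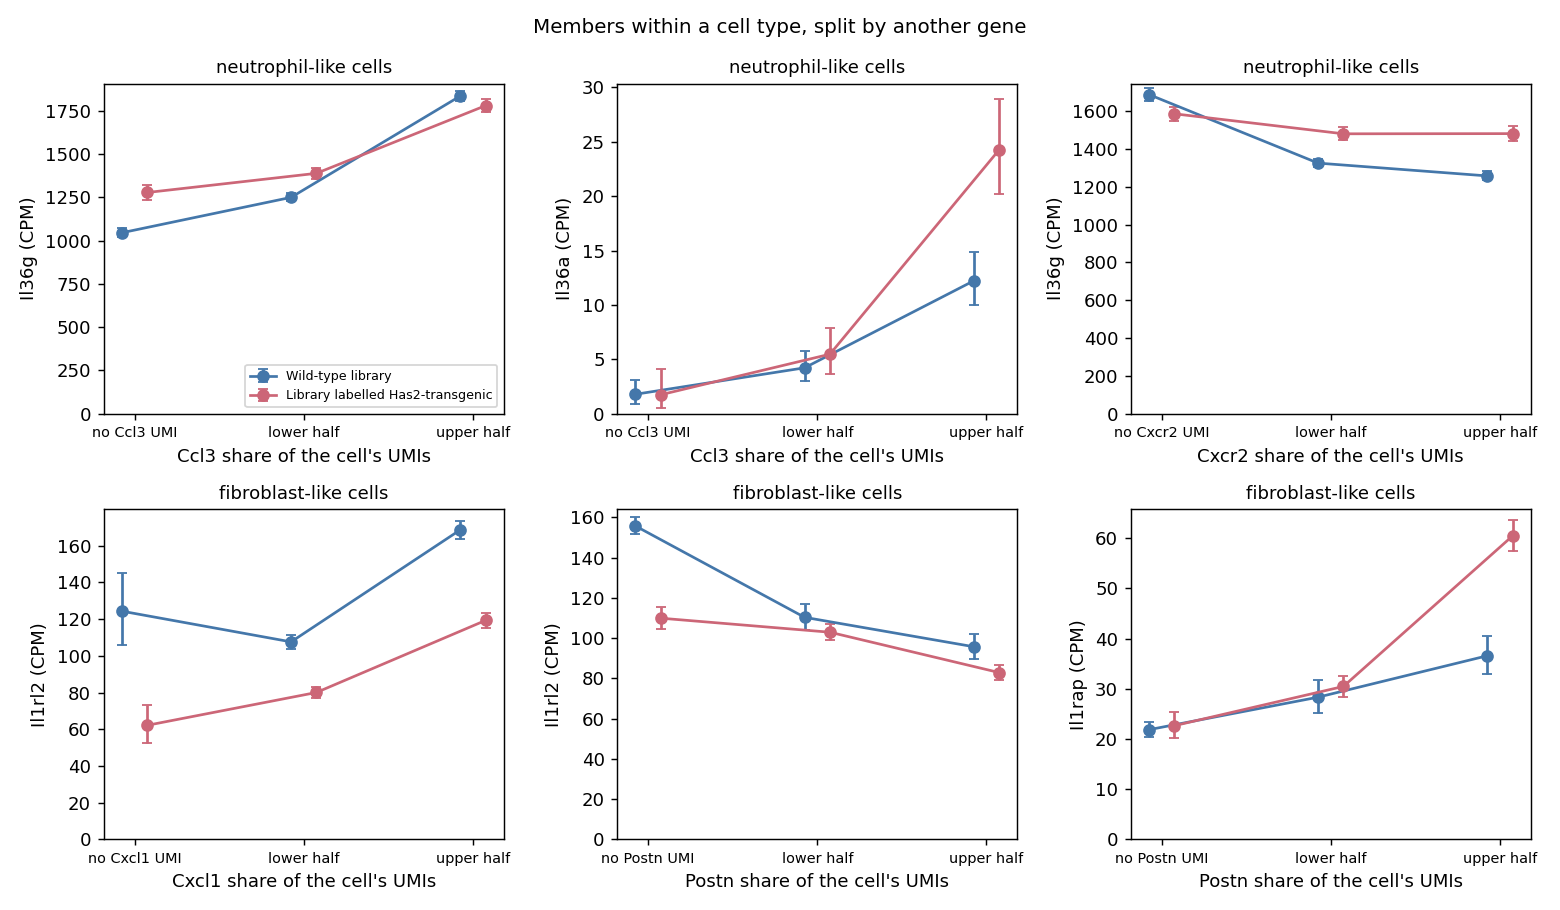
Levels (CPM, linear axes from 0) of Il36g, Il36a, Il1rl2 and Il1rap within neutrophil-like cells (upper row) and fibroblast-like cells (lower row), split by the share of another gene in the cell's UMIs into none, at or below the median, and above it. Points are sums over the cells of a group with 95% Poisson intervals, blue for wild-type and red for Has2-labelled. Il36g and Il36a climb with Ccl3, reaching 1835 and 12.2 CPM in the wild-type library, and Il1rl2 drops with Postn, from 156 to 95.7 CPM, while Il1rap climbs.

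The receptor gene Il1rl2 was found mainly in fibroblast-like cells, which held little ligand. Fibroblast-like cells held 7493 Il1rl2 UMIs in the wild-type and 6414 in the Has2-labelled library, 84.9% and 86.6% of each library's total. They also held 38.2% and 49.3% of all UMIs. With every cell thinned to 1000 UMIs their share of Il1rl2 was 65.6% and 65.9%. The level was 137 CPM (133 to 140) and 96.7 CPM (94.4 to 99.1). At least 1 UMI was seen in 66.9% and 72.2% of fibroblast-like cells at median depths of 18955 and 24626 UMIs, and in 13.7% and 9.78% after thinning. In T-cell-like cells 0.870% and 0% of cells had a UMI.

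Keratinocyte-like cells also had Il1rl2, 103 CPM (72.6 to 141) from 38 wild-type UMIs and 40.6 CPM (35.0 to 46.9) from 188 UMIs of the Has2-labelled library. The wild-type interval overlapped those of both fibroblast-like levels. In the wild-type library 14 of the 38 UMIs came from 1 cell, and the level dropped to 71.6 CPM when that cell was left out. Pericyte-like cells stood at 18.8 CPM (5.14 to 48.3) from 4 UMIs and 40.2 CPM (29.9 to 52.8), the latter overlapping the keratinocyte-like interval of that library. Of these cells, 9 of 20 and 57 of 82 also carried at least 3 markers of another type. Their median number of fibroblast markers was 2 and 3. The part of fibroblast RNA in the pericyte-like levels was not tested. Levels were lower in macrophage-like cells, 14.2 and 10.8 CPM, neutrophil-like cells, 10.1 and 10.5 CPM, and endothelial-like cells, 4.89 and 4.91 CPM. No UMI was found in Schwann-like cells. Per 1000 UMIs of the fibroblast genes Dcn, Lum and Pdgfra, Il1rl2 counted 18.5 and 14.1 in fibroblast-like cells. The same measure was 1041 and 1243 in macrophage-like cells and 2611 in Has2-labelled keratinocyte-like cells, far from the fibroblast-like ratio. It was 188 and 358 in neutrophil-like cells.

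**Figure D4:**
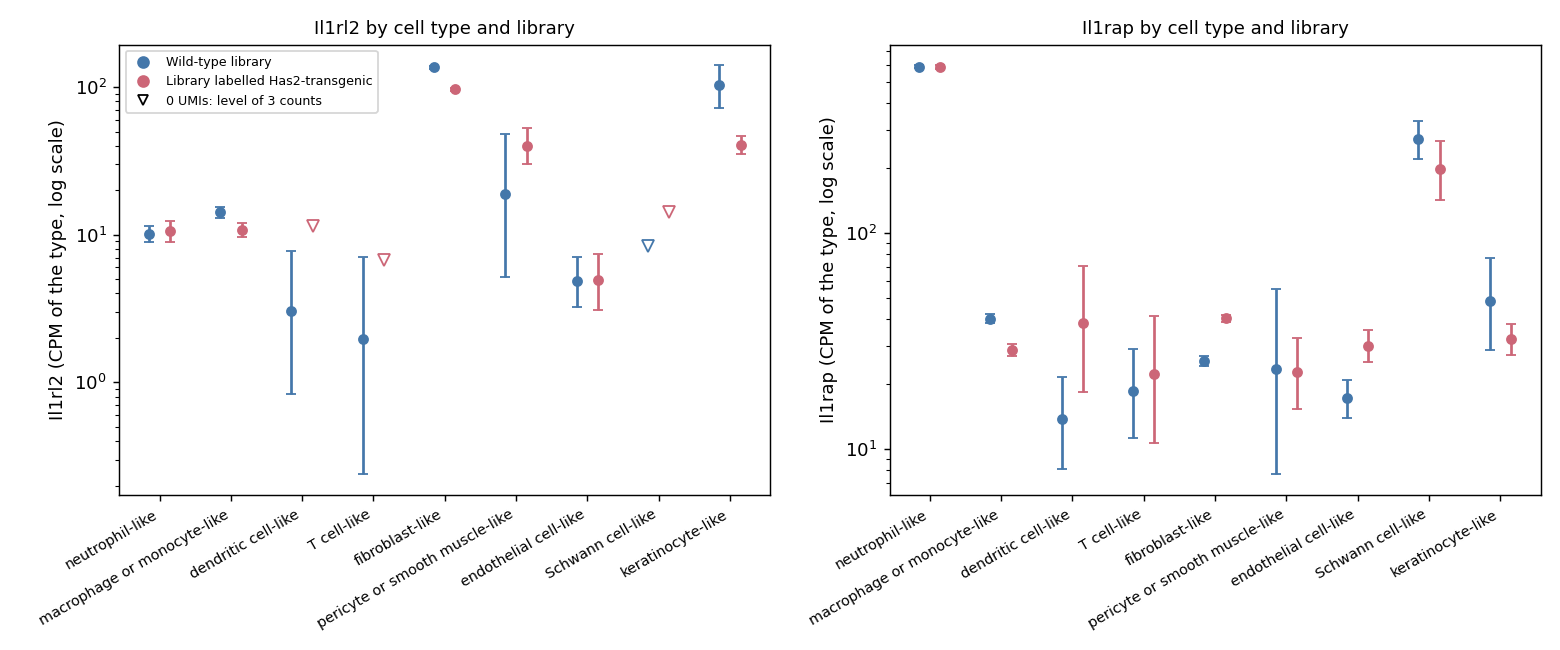
Levels (CPM of all UMIs of the cell type, log axes) of Il1rl2 on the left and of Il1rap on the right in the 9 cell types, blue for wild-type and red for Has2-labelled, with 95% Poisson intervals. Open triangles mark the level of 3 counts where no UMI was found. Il1rl2 is highest in fibroblast-like cells (137 and 96.7 CPM), and Il1rap in neutrophil-like cells (590 and 586 CPM).

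Il1rap, the shared chain, had a different order of cell types. Neutrophil-like cells had 590 and 586 CPM, Schwann-like cells 273 and 198 CPM, keratinocyte-like cells 48.6 and 32.4 CPM, macrophage-like cells 40.3 and 28.8 CPM and fibroblast-like cells 25.7 and 40.3 CPM. Both chains were seen in the same cell in 25.7% and 34.3% of fibroblast-like cells and in 25.0% and 23.6% of keratinocyte-like cells. In macrophage-like cells the shares were 3.87% and 1.81%, and in neutrophil-like cells, despite their Il1rap, 2.40% and 1.69%. These shares rise with depth and were not thinned. The antagonist Il36rn gave 3 UMIs in the wild-type and 45 in the Has2-labelled library. Keratinocyte-like cells of the latter held 42 of them in 21 cells, 93.3%, at 9.07 CPM (6.54 to 12.3). The 20 wild-type keratinocyte-like cells had 0, with an interval up to 9.97 CPM. The keratinocyte-like levels of the libraries were therefore not told apart. Of the other genes on the list of receptor partners and inhibitors, Il1f10 had 0 and 1 UMIs in all, Sigirr at most 15 UMIs in any of the 4 types compared below, and Il1rl1, the interleukin-33 receptor, 1102 and 966 CPM in fibroblast-like cells.

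Il1rl2 was lower in the Has2-labelled library in fibroblast-like cells, at a ratio of 0.708 (0.685 to 0.732), in macrophage-like cells at 0.761 (0.663 to 0.873) and in keratinocyte-like cells at 0.396 (0.278 to 0.576). After thinning to 1000 UMIs the macrophage-like ratio was 0.776 (0.506 to 1.18) and the keratinocyte-like ratio 0.562 (0.123 to 5.22). Both of these intervals include 1. Without the cell holding most Il1rl2 UMIs in each library, the keratinocyte-like ratio was 0.551 (0.359 to 0.882). Neutrophil-like cells showed a ratio of 1.04 (0.839 to 1.28). Il1rap was higher in the Has2-labelled library in fibroblast-like cells (1.57, 1.47 to 1.68) and in endothelial-like cells (1.75, 1.34 to 2.31), and lower in macrophage-like cells (0.716, 0.659 to 0.777), beyond counting error. After thinning to 1000 UMIs the Il1rap ratios were 1.57 (1.14 to 2.18), 2.5 (0.721 to 10.9) and 0.731 (0.574 to 0.929) in that order. The thinned endothelial-like interval includes 1. Fibroblast- and macrophage-like cells of the 2 libraries fell into clusters in different shares. The libraries were clustered together without integration, so a difference in makeup cannot be told apart from a library effect. Of wild-type fibroblast-like cells, 35.1% lay in a cluster led by Cxcl13 and Ampd3, 33.9% in one led by Thbs4 and Cxcl14, and 26.6% in a cluster of shallow barcodes led by the globin gene Hbb-bs, which was left unnamed. Of Has2-labelled fibroblast-like cells, 45.2% lay in a cluster led by Sfrp2 and Clec3b, 24.2% in one led by Col7a1 and Tnn, and 12.5% in the Cxcl13 cluster.

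Of macrophage-like cells, 41.7% of the wild-type and 12.1% of the Has2-labelled cells lay in a cluster led by Ppbp and Pf4, 26.7% and 16.4% in one led by Hp and Chil3, and 8.21% and 19.04% in one led by the antigen-presentation genes H2-Eb1 and H2-Aa. The cluster led by Cd209f and Cd209d held 10.1% and 29.0%. Among 6 macrophage-like clusters Il1rl2 was lower in the Has2-labelled library in 1 and higher in 5, with no intervals apart, so the lower level over the whole type was not seen cluster by cluster. It was lowest in the Cd209f cluster, 2.06 and 3.30 CPM, and highest in the cluster led by Ereg and Cxcl1, 27.3 and 31.6 CPM. Il1rap was lower in 5 of the 6, with intervals apart in 2, the H2-Eb1 cluster (39.9 and 25.7 CPM) and the Hp cluster (74.4 and 58.8 CPM). The part of the makeup in the macrophage-like ratios was not tested beyond these levels.

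Among fibroblast-like clusters the difference in Il1rl2 kept its direction and that in Il1rap did not. Il1rl2 was lower in the Has2-labelled library in 4 of 4 fibroblast-like clusters, and the intervals were apart in 3 of them. The levels were 199 and 116 CPM in the Cxcl13 cluster and 95.2 and 65.2 CPM in the Thbs4 cluster. They were 153 and 118 CPM in the Sfrp2 cluster, which held 43 wild-type cells, and 75.4 and 65.1 CPM in the Col7a1 cluster, which held 27. The shallow Hbb-bs cluster had 106 and 53.2 CPM. Il1rap was higher in the Has2-labelled library in 0 of the 4 clusters. It stood at 24.9 and 23.7 CPM in the Cxcl13 cluster, 27.5 and 26.2 CPM in the Thbs4 cluster, 50.4 and 29.4 CPM in the Sfrp2 cluster and 140 and 73.7 CPM in the Col7a1 cluster. The wild-type levels of the Sfrp2 and Col7a1 clusters rest on those few cells.

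**Figure D5:**
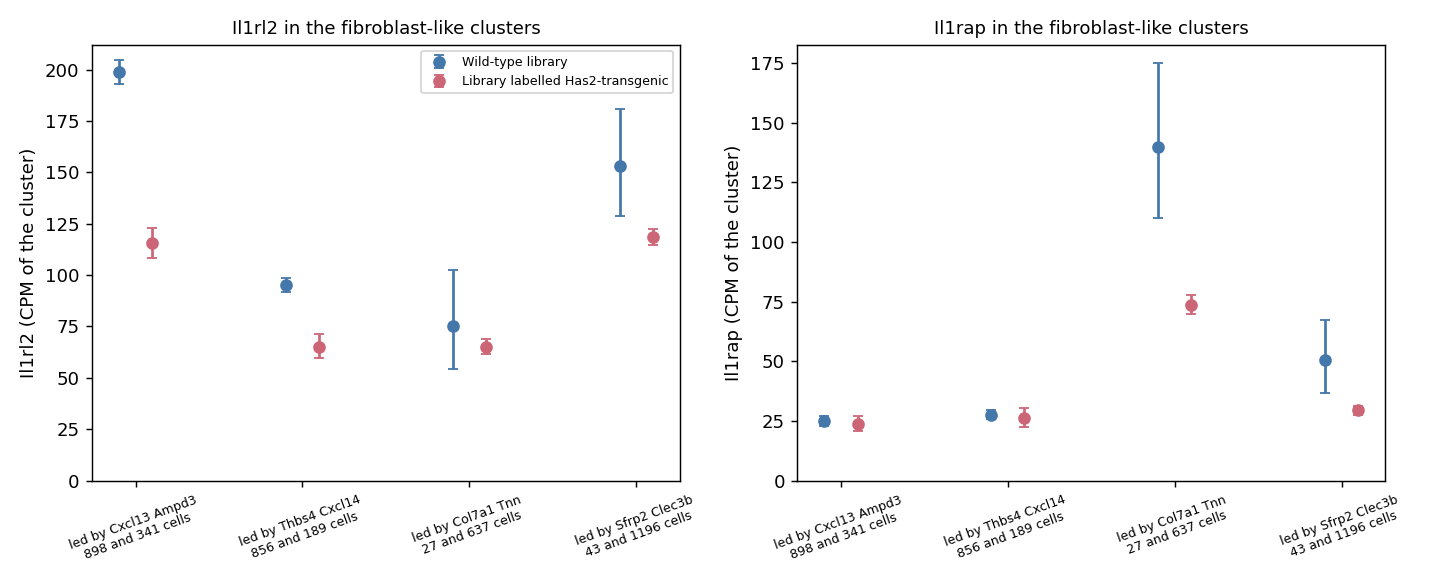
Levels (CPM of the cluster, linear axes from 0) of Il1rl2 on the left and Il1rap on the right in the 4 fibroblast-like clusters, each named by 2 leading genes with its wild-type and Has2-labelled cell numbers. Points carry 95% Poisson intervals, blue for wild-type and red for Has2-labelled. The red Il1rl2 points lie below the blue ones in each cluster (116 against 199 CPM in the Cxcl13 cluster), and no red Il1rap point lies above the blue one.

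Within fibroblast-like cells Il1rl2 was highest in the cells richest in Cxcl1 or Il6 and, in other splits, lowest in the cells richest in Postn or contractile genes. Split by Cxcl1, a neutrophil-attracting chemokine, the groups with none, at or below the median and above it had 124, 108 and 169 CPM in the wild-type and 62.2, 80.1 and 119 CPM in the Has2-labelled library. Split by Il6 they had 89.8, 128 and 152 CPM, and 64.7, 95.6 and 113 CPM. Split by Postn, the matricellular protein gene of wound fibroblasts, Il1rl2 had the opposite order, 156, 110 and 95.7 CPM and then 110, 103 and 82.9 CPM. The contractile genes Acta2 and Tagln gave the same order as Postn, 149, 99.8 and 94.3 CPM and then 112, 91.6 and 69.7 CPM. Il1rap was higher with more Postn, 21.9, 28.3 and 36.6 CPM in the wild-type and 22.7, 30.5 and 60.5 CPM in the Has2-labelled library. Cells without UMIs of the splitting gene were the shallower ones in each of these splits. In the wild-type library their medians were 14791 UMIs for Postn, 1476 for Cxcl1, 1442 for Il6 and 16197 for Acta2 and Tagln. The other wild-type Il6 groups had medians of 25057 and 23831 UMIs, so the first group differed in depth as well as in Il6.

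In macrophage-like cells the low Il1rl2 level differed with Arg1 and C1qb. Split by Arg1, an arginase gene of wound macrophages, it was 5.64, 12.9 and 21.7 CPM in the wild-type and 5.94, 12.5 and 19.4 CPM in the Has2-labelled library. Split by C1qb, a complement gene of resident macrophages, it was 18.3, 15.0 and 8.31 CPM and 18.6, 11.8 and 5.23 CPM. The small Il36g signal of these cells was also lower with more C1qb, 22.8 CPM in wild-type cells with no C1qb against 6.64 CPM above the median, and 31.6 against 2.73 CPM in the Has2-labelled library.

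Genes reported to respond to interleukin-36 were next compared between the libraries, with a ratio of at least 2 in either direction taken as a call and no replicate behind it. A gene counted as measured with at least 20 UMIs over both libraries. In neutrophil-like cells, of 16 measured genes on a list of 20, 5 were higher in the Has2-labelled library, where 4.67% of all 12704 measured genes were, and 5 were lower, where 6.56% of all genes were. The list's median log2 ratio was 0.34, against -0.09 over all genes. The higher ones with at least 100 UMIs were Il23a (77.0 and 181 CPM, a ratio of 2.35), Ccl3 (2.08), Icam1, an adhesion molecule (2.08), and Cxcl1 (2.05), and the lower ones Csf2 (0.355), Cxcl5 (0.477) and Il6 (0.498). Il23a, Cxcl1 and Ccl3 were among the leading genes of the neutrophil-like cluster that held 18.8% of the wild-type and 28.7% of the Has2-labelled cells, and the part of that makeup in their ratios was not tested. The 4 members had ratios under 2 there, 0 of 4 being called. Of 12 signalling genes, Nfkbia, the NF-kB inhibitor, was called at 3558 and 7355 CPM, and the list's median log2 ratio was 0.04. None of the 5 genes on the list of other interleukin-1 family ligands and antagonist passed 2-fold, with Il1a at a ratio of 1.69 and Il1b at 1.45. Of the proteases reported to trim interleukin-36, Ctss, cathepsin S, had a ratio of 0.907 and Prtn3, proteinase 3, gave 28 and 5 UMIs.

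In macrophage-like cells 2 of 14 measured response genes were higher, Tslp (0.529 and 3.39 CPM) and Il23a (3.83 and 8.48 CPM), where 5.57% of all 14299 genes were. Another 2 were lower, Cxcl5 (89.9 and 29.3 CPM) and Lcn2 (18.6 and 8.93 CPM), where 2.55% of all genes were. The list's median log2 ratio was -0.22, against 0.04 over all genes. Ctss was highest in these cells, 1616 and 2065 CPM. The antagonist of interleukin-1, Il1rn, stood at 543 and 612 CPM there. The part of the macrophage-like cluster makeup given above in these calls was not tested.

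In fibroblast-like cells, the type with most of the receptor, 5 of 16 measured response genes were lower in the Has2-labelled library, where 2.44% of all 17019 genes were, and 1 was higher, where 9.94% of all genes were. The lower ones included Il6 (2496 and 978 CPM, a ratio of 0.392), Csf3, a neutrophil growth factor (746 and 290 CPM), Lcn2, an iron-binding antimicrobial protein (785 and 341 CPM), and Tslp (86.8 and 43.3 CPM). The higher one was Tnf (14.5 and 32.4 CPM), which was not called with cell types from Leiden clusters. The list's median log2 ratio was -0.42, against -0.01 over all genes. Cxcl1, the most abundant of the list, was at 9855 and 7984 CPM, and Il33, an alarmin of the same cytokine family, at 908 and 527 CPM. Whether the change of cluster makeup described above goes with these differences was not tested.

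In keratinocyte-like cells, with 20 wild-type cells, 6 of 13 measured response genes were higher, where 11.2% of all 10072 genes were, and 2 were lower, where 12.1% of all genes were. Cxcl1 (719 and 191 CPM) and Cxcl2 (1364 and 539 CPM) were the lower ones. The higher ones included Cxcl3 with 5 and 746 UMIs, Ccl4 with 1 and 418, and Ccl3 with 4 and 345. Csf3r, Cxcr2 and Retnlg together stood at 10.8 and 59.2 CPM in the same cells, from 4 and 274 UMIs, and the part of neutrophil RNA in these counts was not tested. Tslp and Defb14, a beta-defensin, were also higher, with 278 and 217 UMIs in the Has2-labelled library and 0 in the wild-type library. These levels were 7.41-fold and 5.78-fold that of 3 counts, and the intervals of the ratios began at 5.99 and 4.66. The list's median log2 ratio was 0.13, against -0.14 over all genes.

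The genes whose levels ran most like those of the members were ranked over 18 points, 9 types in 2 libraries, among 14563 genes, as a description. Il36g ran most like Slc40a1, an iron exporter, and Fpr1, a formyl peptide receptor of neutrophils (r = 0.94 each), then Csf3r (0.93), Gm37982 (0.93) and Gm20406 (0.92). Il36a ran most like Siglecl1, Gucy2g, Gm12708, Gm36129 and 1700071M16Rik, with r from 0.99 down to 0.98. Il1rl2 ran most like 1200007C13Rik (0.90), Abi1 (0.89), Bmpr1b (0.88), Rac3 (0.88) and Plau (0.87). Il36b had under 100 UMIs and was not ranked. The points share libraries, and a type with few UMIs weighs as much as one with many.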

How the data were processed

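Single cells of dissociated skin were captured with a droplet kit that reads the 5′ ends of transcripts, 1 library per genotype. The authors deposited matrices of raw UMI counts, genes by barcodes, made with Cell Ranger 9.0.1 on GRCm39, per the submitters' processing notes. One library is labelled total RNA and the other polyA RNA under the same protocol text. Barcodes with fewer than 200 genes (137 wild-type, 150 Has2-labelled) or over 15% mitochondrial UMIs (25 and 57) were removed. A marker counted with at least 1 UMI and 2 per 10000 UMIs, a cell joined the type with most of its 8 markers, at least 3 of them, and a cell whose runner-up type had at least 3 markers and was within 1 was set aside as mixed, except that macrophage with dendritic and fibroblast with pericyte were mixed at ties only. This was the treatment of doublets, and 1882 and 1291 cells had too few markers. The thresholds of this rule, though not the markers, were set after the data had been seen. The members and gene lists were chosen with earlier results of these data known.

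Levels are summed counts per 1000000 UMIs of the type (CPM) with exact Poisson intervals. Ratios carry exact conditional intervals, and shares exact Clopper-Pearson ones, all at 95% and for counting error only. With 0 UMIs, 3 counts served as the floor. List ratios used a pseudocount of 0.5 UMIs, and likeness is Pearson's r of log2(CPM + 1) among genes with at least 200 UMIs. Named list genes are those with at least 100 UMIs and the largest ratios in their type, with all measured partners, inhibitors and proteases, and others where the list needed them. The splits of cells by another gene (12 were made, and those not described are by Ly6c2 among macrophages) and the comparison by cluster were added after seeing the data. The promoter patterns were chosen after the sequences had been seen, and a TATA pattern was also searched and is not shown. Leiden clusters (26, both libraries together, members left out of the clustering genes) served as an alternative typing. Variable genes were chosen with the library as batch, and no other correction for library was made. Low-depth clusters without markers of their type among their leading genes stayed unnamed. Scrublet's own threshold marked 1.37% and 0% of cells, so the alternative left out the 1134 and 831 highest scores. The interval code was tested on simulated counts. Python 3.11.15, NumPy 2.4.6, SciPy 1.17.1, pandas 2.3.3, Scanpy 1.11.5 and matplotlib 3.10.9 were used.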

Additional observations from a re-analysis of the deposited data

Results flagged for a closer look

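Il1rap moved in opposite directions in different cell types. The ratio of the Has2-labelled to the wild-type library was 1.57 in fibroblast-like and 1.75 in endothelial-like cells, and 0.716 in macrophage-like cells. Within fibroblast-like clusters it was higher in the Has2-labelled library in 0 of 4, and within macrophage-like clusters lower in 5 of 6. The Sfrp2 and Col7a1 clusters of fibroblast-like cells held only 43 and 27 wild-type cells. Il36g had a ratio of 1.09 in neutrophil-like and 0.813 in fibroblast-like cells. Each of these ratios had an interval on its side of 1, but with 1 library per genotype the differences between cell types were not tested. After thinning to 1000 UMIs the endothelial-like Il1rap interval, 0.721 to 10.9, included 1. The fibroblast-like Il36g ratio turned to 1.41 and 1.59 under other settings.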

How the results depend on the processing

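The neutrophil-like share of Il36g, 93.6% and 90.9%, was 90.2% and 88.9% with cell types from Leiden clusters, 90.2% and 88.3% under a stricter gate, 95.3% and 93.2% without the highest Scrublet scores, and 97.1% and 97.4% after thinning every cell to 1000 UMIs. The Il36g ratio in neutrophil-like cells was 1.06 by Leiden clusters, 1.07 under the stricter gate, 1.05 when per-cell CPM values were averaged and 1.04 after thinning. The thinned share of cells with Il36g was 43.3% (wild-type) and 43.7% (Has2-labelled) at 500 UMIs, and 68.0% and 57.3% of unthinned cells had at least 2 UMIs. In the wild-type library it was 63.5% by Leiden clusters and 62.7% without the highest Scrublet scores. Keratinocyte-like Il36g in the Has2-labelled library was 37.4 CPM as a per-cell mean and 37.6 CPM after thinning, which put neutrophil-like cells 42.3-fold higher. The Il36a ratio, 1.90, was 1.41 (0.936 to 2.12) after thinning, and the Il1rl2 ratio in fibroblast-like cells was 0.657 as a per-cell mean and 0.664 after thinning. The fibroblast-like share of Il1rl2, 84.9% and 86.6%, was 65.6% and 65.9% after thinning and 80.4% and 81.5% under the stricter gate. The Il36g ratio in fibroblast-like cells, 0.813, reversed to 1.41 under the stricter gate and 1.59 as a per-cell mean, and the cause was not tested. The response-gene counts in neutrophil-like cells, 5 higher and 5 lower, were 1 and 2 after thinning, and the lower count was 3 with Leiden clusters, the stricter gate, at least 500 genes per cell or at least 100 UMIs per gene. In macrophage-like cells the 2 higher became 0 after thinning and 1 with Leiden clusters, and the 2 lower became 1 after thinning. In fibroblast-like cells the 5 lower became 3 after thinning, and the 1 higher, Tnf, became 0 with Leiden clusters. Thinning leaves fewer genes with enough UMIs. The list alternatives were run for the response genes in these 3 types and not in keratinocyte-like cells. Leaving out the barcodes found in both libraries, an alternative chosen after seeing the data, moved none of the values named here beyond its counting interval. No paired analysis was possible because each genotype has 1 library. The 20 wild-type keratinocyte-like cells limit every value that rests on them.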
